A study of Mus musculus with 18 samples.

Results

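The interleukin-6 family of cytokines, their receptors and the feedback gene Socs3 were followed in subcutaneous mouse tumours with and without OK-432. The set was chosen by gene name, with earlier results of these data known. It held Il6, Il11, Lif, Osm, Il6ra, Il6st, Osmr, Lifr and Socs3, 9 of the 55291 genes in the table. All 9 reached at least 1 TPM in at least 3 of the 18 libraries and were among the 16816 genes tested. The libraries formed 6 groups of 3. CT26_OK432, CT26NYESO1_OK432 and LL2_OK432 were tumours that had received OK-432, a killed Streptococcus pyogenes preparation, by injection 24 hours earlier, and had been grown from the cell lines CT26, CT26-NY-ESO-1 and LL/2 in that order. CT26_Ctrl, CT26NYESO1_Ctrl and LL2_Ctrl were the same tumours without OK-432, and all tumours were taken on day 14. The parent line CT26 came from a BALB/c colon tumour, CT26-NY-ESO-1 is named for a human tumour antigen, and LL/2 is known as Lewis lung carcinoma, from C57BL/6. The labels name BALB/cJ and C57BL/6J hosts, so that line and host strain cannot be told apart between LL2 and the CT26-derived tumours. The labels do not say what the controls received, or whether CT26-NY-ESO-1 is 1 clone. They also do not say that the replicates of a group were different mice, so the p-values rest on a spread between libraries that may be technical in part.

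Members of this family are small secreted proteins that act through a shared signalling receptor, gp130, encoded by Il6st. Interleukin-6 and interleukin-11 first bind their own receptor subunits and then gp130, whereas leukaemia inhibitory factor (Lif) joins gp130 to the receptor Lifr, and oncostatin M (Osm) joins it to Osmr. The assembled receptors activate JAK kinases and the transcription factor STAT3, and STAT3 induces Socs3, whose protein binds gp130 and shuts the signal down. In inflamed tissue and tumours these cytokines come from macrophages, neutrophils, fibroblasts and tumour cells, and interleukin-6 is known as an inducer of the acute phase response.

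Promoters of 3 cytokine genes and Socs3 are shown first, because these genes are textbook targets of inflammatory transcription factors. RefSeq windows on build GRCm38.p6, from 250 bases before to 50 bases after a gene's start, were present for 8 of the 9 genes, in 10 windows. Capitals mark the matches to 5 short motifs searched on both strands.
Il6, plus strand, chr5:30012864-30013163: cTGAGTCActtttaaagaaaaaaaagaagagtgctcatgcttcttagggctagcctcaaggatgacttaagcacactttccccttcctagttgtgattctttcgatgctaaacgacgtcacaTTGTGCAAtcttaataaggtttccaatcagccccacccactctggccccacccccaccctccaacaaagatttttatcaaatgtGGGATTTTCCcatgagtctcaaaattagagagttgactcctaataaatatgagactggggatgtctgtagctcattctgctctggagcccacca
Il11, minus strand, chr7:4778092-4778391: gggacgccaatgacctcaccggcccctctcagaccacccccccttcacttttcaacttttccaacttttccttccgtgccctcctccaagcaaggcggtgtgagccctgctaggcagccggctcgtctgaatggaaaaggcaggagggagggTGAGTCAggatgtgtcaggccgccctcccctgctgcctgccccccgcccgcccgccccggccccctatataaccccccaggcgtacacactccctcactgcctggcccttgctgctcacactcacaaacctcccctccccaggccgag
Lif, plus strand, chr11:4257318-4257617: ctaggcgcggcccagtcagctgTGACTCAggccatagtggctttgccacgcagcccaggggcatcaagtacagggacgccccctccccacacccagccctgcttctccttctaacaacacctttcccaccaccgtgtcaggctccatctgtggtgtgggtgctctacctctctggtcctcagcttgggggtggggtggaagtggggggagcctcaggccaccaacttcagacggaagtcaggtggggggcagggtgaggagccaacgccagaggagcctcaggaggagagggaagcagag
Socs3, minus strand, chr11:117969317-117969616: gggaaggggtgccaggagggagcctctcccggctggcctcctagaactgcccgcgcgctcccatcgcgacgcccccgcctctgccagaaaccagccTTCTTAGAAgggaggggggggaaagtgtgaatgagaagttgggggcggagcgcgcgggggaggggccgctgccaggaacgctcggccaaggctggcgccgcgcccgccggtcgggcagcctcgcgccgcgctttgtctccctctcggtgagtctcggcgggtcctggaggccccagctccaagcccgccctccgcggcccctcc
The motifs were STAT (TTCNNNGAA), AP-1 (TGANTCA), C/EBP (TTNNGNAA), CRE (TGACGTCA) and NF-kB (GGG, any 2 bases, then TTTCC). The Il6 window held an NF-kB match beginning 44 bases before the start, a C/EBP match 128 bases before it and an AP-1 match 249 bases before it. The Socs3 window held 1 STAT match, which begins 154 bases before the start. Single AP-1 matches began 228 bases before the start in Lif and 98 bases before it in the Il11 window shown, while the window of the other annotated Il11 start held no match. Of all 32851 promoter windows, 8.30% held the STAT motif, 7.81% AP-1, 40.7% C/EBP, 1.79% CRE and 1.63% NF-kB. No match overlapped a match of another motif. The Osmr window had an AP-1 match 3 bases after the start, the Il6ra window had 2 C/EBP matches, and those of Il6st and Lifr had none. A match is a run of letters, and binding was not measured here.

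In GENCODE M21 on mm10 coordinates, Osm (4236420 to 4241026) and Lif (4257557 to 4272514) are neighbours on the plus strand of chromosome 11, 16.5 kb apart with no annotated gene between them. Socs3 lies on the same chromosome at 117966079 to 117970047, on the minus strand. Osmr (6813577 to 6874969, minus strand) and Lifr (7090614 to 7197489, plus strand) lie on chromosome 15 with no protein-coding gene in between. Il6 is on chromosome 5 (30013114 to 30019981, plus strand), Il11 on chromosome 7 (4772373 to 4782859, minus strand), Il6ra on chromosome 3 (89864059 to 89913196, minus strand) and Il6st on chromosome 13 (112464070 to 112510086, plus strand). Il6ra is the only one of the 9 that overlaps another annotated gene, the antisense Gm42809, which reads up to 1.25 TPM and whose reads could be shared if counting ignored strand.

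Values were the authors' TPM, a transcript's abundance per length scaled to a total of 1000000 in each library, which keep no sequencing depth. Log2 differences were taken between log2(TPM + 1) values, so changes of scarce transcripts come out too small, and were tested with limma across all tested genes with Benjamini-Hochberg adjustment. A gene was called at an adjusted p under 0.05. Each gene's spread was estimated over all 6 groups together. An SE, interval or p-value in a tumour type therefore also reflects the libraries of the other types. Among checks of the tissue, summed TPM of 10 neutrophil markers stood at 110 to 193 in CT26_OK432 and 35.4 to 44.4 in CT26_Ctrl, at 105 to 714 in CT26NYESO1_OK432 and 28.9 to 32.9 in CT26NYESO1_Ctrl, and at 143 to 253 in LL2_OK432 and 29.3 to 41.0 in LL2_Ctrl. Of these markers Cxcr2, Retnlg, Ly6g, Camp and Ltf were listed at 0 in at least 1 library, and Ly6g did not exceed 0.548 TPM. All 8 macrophage markers were present in every library, with sums of 1281 to 3182. The epithelial keratin Krt8 averaged 190 ± 16.9 TPM in LL2_OK432 and 204 ± 57.4 TPM in LL2_Ctrl (SD, n = 3 each), and stayed at or below 0.199 TPM in every CT26 and CT26NYESO1 library. Its partner Krt18 averaged 12.2 TPM in CT26NYESO1_Ctrl and 0.203 TPM in CT26_Ctrl, and the epithelial marker Epcam did not exceed 0.304 TPM in any library. The lung markers Nkx2-1 and Sftpa1 were listed at 0 in all 18 libraries, and the colon marker Cdx1 in 15.

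None of the 9 genes was called with OK-432 in any tumour type, and no difference between the effects in 2 tumour types was called. Mean Il6, Il11, Lif, Osm and Socs3 had log2 differences of 0.43 to 1.01 in CT26NYESO1, where the groups overlapped for all but Il11. In LL2 these were 0.20 to 0.87, with Il6, Il11 and Lif not overlapping, and in CT26 −0.13 to 0.18, with all 5 overlapping. In CT26NYESO1, 0 of 9 were called, where 0.666% of all tested genes were called, and 6 of 9 had an unadjusted p under 0.05 (Il6, Il11, Lif, Osm, Osmr and Socs3), where 16.2% of all tested genes did. In LL2, 0 of 9 were called against 0.0178% of all genes, and 3 of 9 had an unadjusted p under 0.05 (Il11, Lif and Osmr) against 5.26%. In CT26, 0 of 9 were called against 0.00% of all genes, and 1 of 9 (Osmr, lower) had an unadjusted p under 0.05 against 4.10%. The median log2 difference of the 9 was 0.43 in CT26NYESO1, 0.21 in LL2 and −0.05 in CT26, beside medians of −0.02, −0.01 and 0.00 over all tested genes. Since the 9 were chosen with earlier results of these data known, such shares and medians are no test of the set. In bulk tumours, fewer cells of a type and less RNA per cell cannot be told apart.

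**Figure D1:**
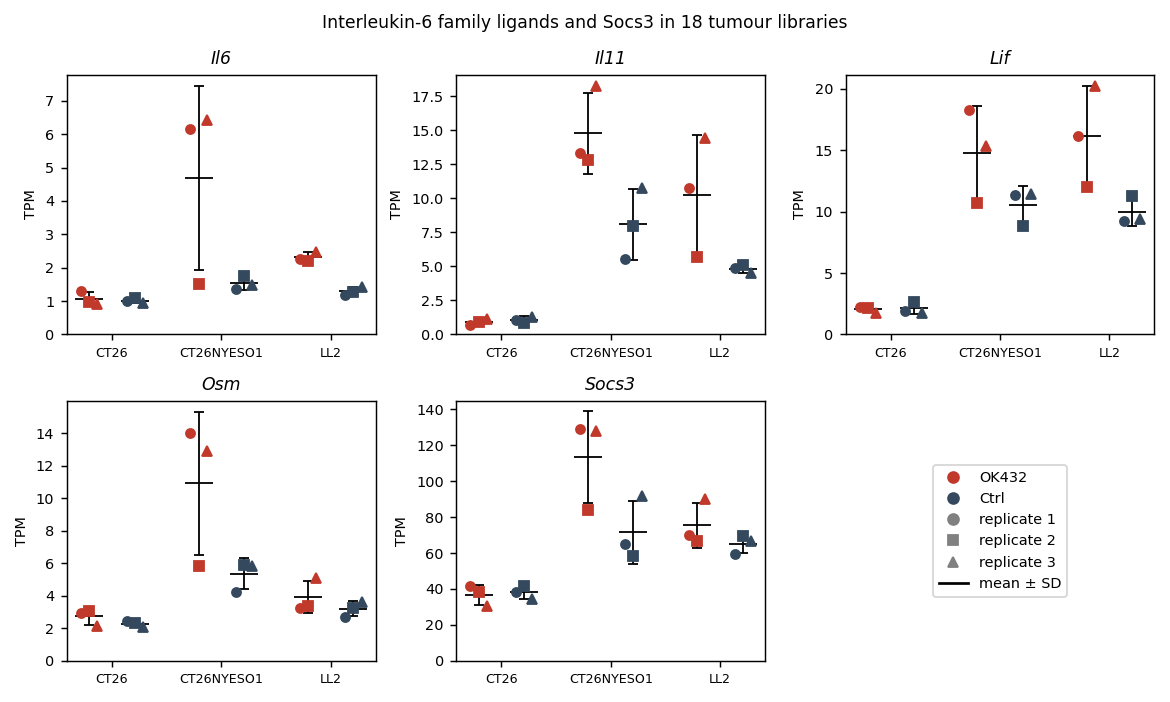
TPM of the 4 cytokine genes and Socs3 in each library by tumour type, with OK432 left of Ctrl, points by replicate number, and bars for the mean ± SD (n = 3). In CT26NYESO1, treated replicates 1 and 3 stand above every control for Il6, Osm and Socs3, and treated replicate 2 lies among the controls.

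Il6, the cytokine that names the family, had the lowest mean of the 9 genes over the 18 libraries. It was at 6.16, 1.52 and 6.41 TPM in replicates 1, 2 and 3 of CT26NYESO1_OK432, against 1.37, 1.75 and 1.496 TPM in CT26NYESO1_Ctrl. Treated replicates 1 and 3 were thus far above all controls, and treated replicate 2 was among them. The log2 difference was 1.01 ± 0.274 (SE; limma adjusted p = 0.0881). In LL2_OK432 Il6 was at 2.27, 2.19 and 2.47 TPM, against 1.17, 1.26 and 1.43 TPM in LL2_Ctrl. Here the groups did not overlap and the replicates lay close together, with a ratio of means of 1.79 and a log2 difference of 0.53 ± 0.274 (SE; limma adjusted p = 0.954). This SE is not the spread of the LL2 libraries alone. It is shared by all groups, and the wide CT26NYESO1_OK432 values enter it. In CT26_OK432 it was at 1.29, 0.9746 and 0.919 TPM, against 1.01, 1.09 and 0.929 TPM in CT26_Ctrl, and the groups overlapped at a difference of 0.03, with a 95% interval of −0.55 to 0.61.

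Osm, a product of activated myeloid cells, had the same low treated library as Il6 in CT26NYESO1. It was at 14.0, 5.85 and 12.9 TPM in CT26NYESO1_OK432, against 4.25, 5.92 and 5.86 TPM in CT26NYESO1_Ctrl. Treated replicate 2 lay within the control range, and the log2 difference was 0.84 ± 0.233 (SE; limma adjusted p = 0.0949). In LL2_OK432 Osm was at 3.27, 3.40 and 5.06 TPM, against 2.69, 3.27 and 3.64 TPM in LL2_Ctrl, with overlapping groups and a difference of 0.21. The CT26_OK432 libraries had 2.95, 3.09 and 2.16 TPM, against 2.43, 2.34 and 2.09 TPM in CT26_Ctrl, again overlapping, with a difference of 0.18.

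Il11, a cytokine of stromal and tumour cells, separated the treated from the control libraries in both CT26NYESO1 and LL2. CT26NYESO1_OK432 had 13.3, 12.8 and 18.2 TPM, against 5.54, 7.95 and 10.8 TPM in CT26NYESO1_Ctrl. Treated replicate 2, which was low for Il6 and Osm, was here above all controls. The means were 14.8 ± 2.99 and 8.09 ± 2.63 TPM (SD, n = 3 each), a log2 difference of 0.82 ± 0.25 (SE; limma adjusted p = 0.121). LL2_OK432 had 10.7, 5.66 and 14.4 TPM, against 4.88, 5.09 and 4.52 TPM in LL2_Ctrl. The controls were tightly grouped and the treated libraries were spread upwards from just above them, with a log2 difference of 0.87 ± 0.25 (SE; limma adjusted p = 0.669). In CT26_OK432 Il11 was at 0.667, 0.927 and 1.12 TPM, against 1.10, 0.836 and 1.32 TPM in CT26_Ctrl, overlapping at a difference of −0.13 with a 95% interval of −0.66 to 0.40.

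Lif, named for its effect on leukaemia cells and also a stem cell factor, was at 16.2, 12.01 and 20.2 TPM in LL2_OK432, against 9.25, 11.3 and 9.37 TPM in LL2_Ctrl. Every treated library was above every control, at a log2 difference of 0.62 ± 0.187 (SE; limma adjusted p = 0.67). CT26NYESO1_OK432 had 18.3, 10.7 and 15.4 TPM, against 11.4, 8.83 and 11.4 TPM in CT26NYESO1_Ctrl. Treated replicate 2 fell inside the control range, and the log2 difference was 0.43 ± 0.187 (SE; limma adjusted p = 0.264). In CT26_OK432 Lif was at 2.24, 2.12 and 1.77 TPM, against 1.93, 2.67 and 1.78 TPM in CT26_Ctrl, with a difference of −0.03 and a 95% interval of −0.43 to 0.36.

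Socs3, the feedback inhibitor of gp130, was at 129, 84.0 and 128 TPM in CT26NYESO1_OK432, against 64.9, 58.4 and 91.6 TPM in CT26NYESO1_Ctrl. Treated replicates 1 and 3 were above all controls and treated replicate 2 was below control replicate 3, with a log2 difference of 0.66 ± 0.184 (SE; limma adjusted p = 0.101). LL2_OK432 had 70.3, 66.6 and 89.9 TPM, against 59.6, 69.4 and 66.8 TPM in LL2_Ctrl. These groups overlapped, and only treated replicate 3, the LL2 library with the most Il11, Lif and Osm, lay clearly above the controls (difference 0.20). CT26_OK432 had 41.7, 38.1 and 30.6 TPM, against 38.5, 41.7 and 34.5 TPM in CT26_Ctrl, with a difference of −0.06 and a 95% interval of −0.45 to 0.33.

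**Figure D2:**
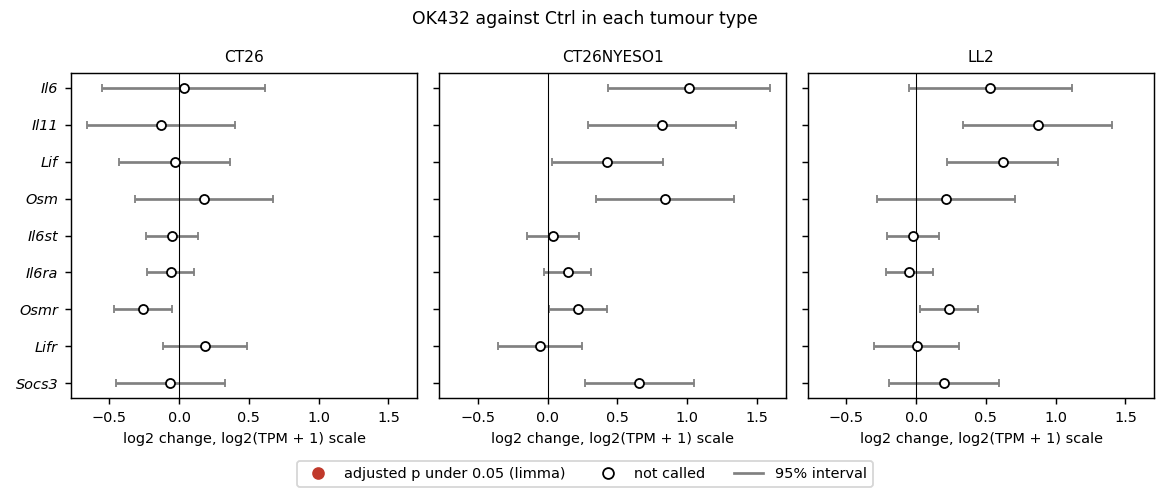
Log2 change of the 9 genes, OK432 against Ctrl, in CT26, CT26NYESO1 and LL2, with 95% intervals from limma; open points were not called. The largest values are those of Il6 in CT26NYESO1 (1.01) and Il11 in LL2 (0.87), and the intervals of Il6st and Il6ra include 0 in each tumour type.

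Among the receptors, Il6st, Il6ra and Lifr had overlapping groups in each tumour type. Il6st, encoding gp130, was at 47.0, 44.4 and 50.2 TPM in CT26NYESO1_OK432, against 47.4, 49.3 and 41.4 TPM in CT26NYESO1_Ctrl. Its log2 difference with OK-432 was 0.04 in CT26NYESO1 (95% interval −0.15 to 0.22), −0.02 in LL2 (−0.21 to 0.16) and −0.05 in CT26 (−0.23 to 0.14). Il6ra, the interleukin-6 binding subunit, had differences of 0.14, −0.05 and −0.06 in the same order, and Lifr, the receptor subunit for leukaemia inhibitory factor, had −0.05, 0.00 and 0.19.

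Osmr, the oncostatin M receptor subunit, was the exception among the receptors, since its groups did not overlap in any tumour type and the direction was not the same. CT26_OK432 had 47.1, 44.0 and 36.5 TPM, against 52.4, 52.1 and 47.8 TPM in CT26_Ctrl, a log2 difference of −0.26 ± 0.0983 (SE; limma adjusted p = 1). CT26NYESO1_OK432 had 11.6, 10.4 and 11.9 TPM, against 9.85, 10.3 and 8.58 TPM in CT26NYESO1_Ctrl, a difference of 0.22 ± 0.0983 (SE; limma adjusted p = 0.279). LL2_OK432 had 15.5, 14.8 and 18.2 TPM, against 12.7, 14.2 and 13.8 TPM in LL2_Ctrl, a difference of 0.23 ± 0.0983 (SE; limma adjusted p = 0.896). The treated libraries were thus all lower in CT26 and all higher in the other tumour types, by small margins in CT26NYESO1 (10.4 against 10.3 TPM for the nearest libraries). The 8 endothelial markers had a median log2 difference of −0.10 in CT26 (1 of 8 positive), 0.24 in CT26NYESO1 (8 of 8) and 0.13 in LL2 (7 of 8). The 8 fibroblast markers had medians of 0.02 in CT26 (7 of 8 positive), 0.10 in CT26NYESO1 (6 of 8) and −0.13 in LL2 (3 of 8). No marker of either cell type was called, and the part of either in the Osmr values was not tested. Groups did not overlap for 1 of the 9 genes in CT26 (Osmr), 2 in CT26NYESO1 (Il11 and Osmr) and 4 in LL2 (Il6, Il11, Lif and Osmr), where 9.89%, 17.0% and 9.87% of all tested genes did not overlap in either direction. In the direction of those members the shares of all genes were 5.10% (lower in CT26), 7.14% (higher in CT26NYESO1) and 4.70% (higher in LL2). For the same reason as above, these counts are no test of the set.

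**Figure D3:**
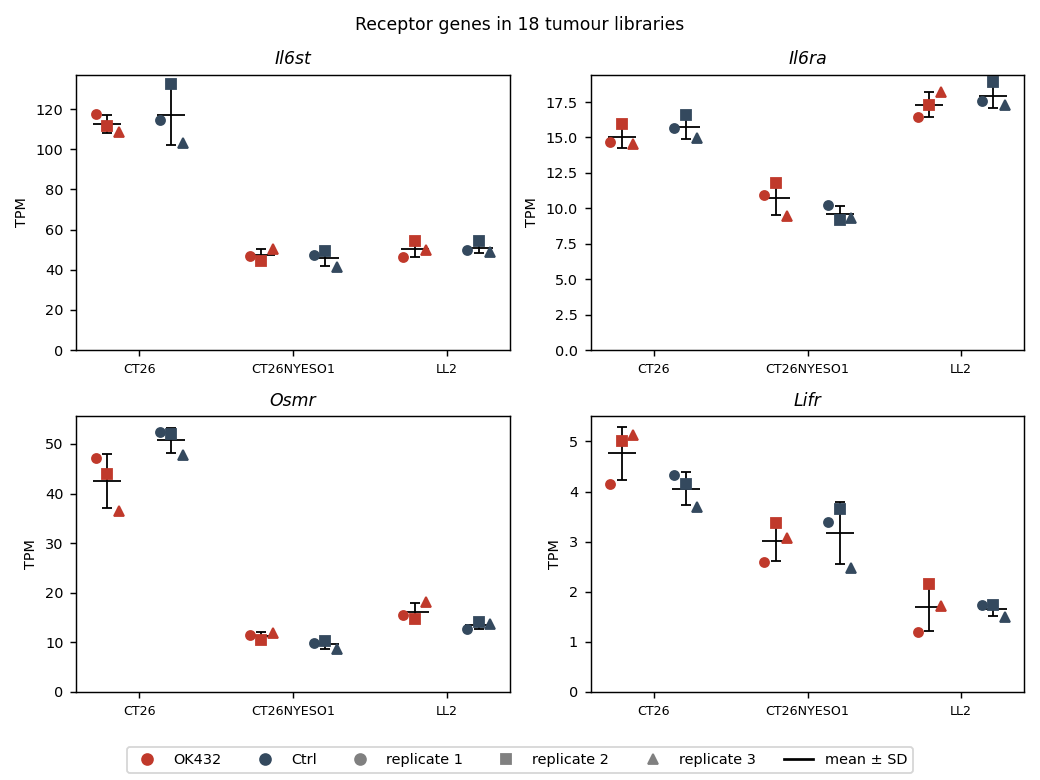
TPM of the receptor genes Il6st, Il6ra, Osmr and Lifr in each library by tumour type, with OK432 left of Ctrl and bars for the mean ± SD (n = 3). CT26 libraries have the most Il6st and Osmr, by more than the differences with OK-432.

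The differences between the OK-432 effects were tested directly and none was called. For CT26NYESO1 minus CT26, 0 of 9 genes were called against 0.00% of all tested genes, and 4 of 9 had an unadjusted p under 0.05 against 8.84%. These were Il6 (0.98 ± 0.388, SE; limma adjusted p = 0.515), Il11 (0.95 ± 0.354; 0.483), Socs3 (0.72 ± 0.26; 0.476) and Osmr (0.47 ± 0.139; 0.439). For LL2 minus CT26 the called count was 0 against 0.00595% of all genes, and 3 of 9 had an unadjusted p under 0.05 against 4.89%. The values were 1.002 ± 0.354 for Il11 (SE; limma adjusted p = 0.963), 0.65 ± 0.264 for Lif (0.998) and 0.49 ± 0.139 for Osmr (0.892). Between LL2 and CT26NYESO1 no gene was called against 0.00595% of all genes, and 0 of 9 had an unadjusted p under 0.05 against 8.81%. The comparisons of effects share the libraries of each tumour type and are not independent.

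Averaged over the 3 tumour types with equal weight, 0 of 9 genes were called, where 0.172% of all genes were, and 5 of 9 had an unadjusted p under 0.05 against 10.3%. The average log2 change was 0.53 ± 0.158 for Il6, 0.52 ± 0.145 for Il11, 0.41 ± 0.134 for Osm, 0.34 ± 0.108 for Lif and 0.27 ± 0.106 for Socs3 (SE; limma adjusted p = 0.302, 0.271, 0.326, 0.31 and 0.403). The 4 receptor genes averaged between −0.01 and 0.07.

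Single libraries bore on these results. Without CT26NYESO1_OK432 replicate 2, Il6 (1.52, limma adjusted p = 2.78e-06), Osm (1.20, adjusted p = 0.0011) and Socs3 (0.86, adjusted p = 0.0129) were called in CT26NYESO1, and Il6 (0.70, adjusted p = 9.51e-06) and Osm (0.53, adjusted p = 0.00913) in the average. The Il6 effect in CT26NYESO1 then also differed from that in CT26 (1.49, adjusted p = 0.000519) and from that in LL2 (LL2 minus CT26NYESO1 −0.99, adjusted p = 0.0177). Over all 18 omissions of 1 library, the adjusted p in CT26NYESO1 reached 0.414 for Il6, 0.411 for Osm and 0.412 for Socs3. Without LL2_OK432 replicate 2, Il11 was called in the average (0.63, adjusted p = 0.0345), and its adjusted p over all omissions reached 0.533. No omission brought a call for any of the 9 within CT26 or LL2.

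The neutrophil marker sum also varied between the treated libraries, and followed the cytokine genes only in part. Of the 10 markers 7 were tested. With OK-432, 3 were called higher in CT26NYESO1, where 0.666% of all tested genes were called. None was called in CT26 or LL2, where 0.00% and 0.0178% of all tested genes were. The call of S100a9 held in all 18 omissions of 1 library, while that of S100a8 ended in 2 and that of Csf3r in 14 (adjusted p up to 0.236). In a fit of the CT26NYESO1 libraries alone, no gene was called with OK-432, S100a9 included. The tested markers had median log2 differences of 1.87 in CT26NYESO1, 0.87 in CT26 and 0.89 in LL2. In CT26NYESO1_OK432 the neutrophil marker sum was 714, 105 and 515 TPM in replicates 1, 2 and 3, against 29.9, 28.9 and 32.9 TPM in CT26NYESO1_Ctrl. Treated replicate 2, low for Il6, Osm, Lif and Socs3, thus had the lowest treated sum. Most of the sum in CT26NYESO1_OK432 was S100a9 and S100a8, with means of 272 and 109 TPM, against 1.82 and 2.25 TPM in CT26NYESO1_Ctrl. Csf3r averaged 25.1 and 10.2 TPM in these groups. The sum is therefore not an even measure of the 10 markers or of neutrophil number. The 8 macrophage markers summed to 1997, 2811 and 1715 TPM in the same treated replicates, against 3171, 2335 and 2753 TPM in the controls, so that replicates 1 and 3 were low. LL2_OK432 had neutrophil sums of 143, 145 and 253 TPM, against 30.3, 41.0 and 29.3 TPM in LL2_Ctrl. Replicate 3 was highest here as it was for Il6, Il11, Lif, Osm and Socs3. Replicates 1 and 2 had close sums, while their Il11 was 10.7 and 5.66 TPM. In CT26_OK432 the sums were 193, 110 and 191 TPM, against 35.4, 44.4 and 38.6 TPM in CT26_Ctrl, and the groups overlapped for all 4 cytokine genes. Osm was highest (3.09 TPM) in CT26_OK432 replicate 2, which had the lowest sum of that group. The summed TPM of 8 skeletal muscle markers was also uneven between libraries. It was 17.1, 130 and 11.5 TPM in replicates 1, 2 and 3 of CT26NYESO1_OK432, against 117, 10.7 and 144 TPM in CT26NYESO1_Ctrl. In LL2_OK432 it was 29.5, 112 and 420 TPM, against 88.0, 123 and 179 TPM in LL2_Ctrl. In CT26_OK432 it was 154, 25.4 and 8.56 TPM, against 7.40, 7.39 and 8.24 TPM in CT26_Ctrl, so every treated library was above every control there. The part of neutrophil number or of muscle in the cytokine differences was not tested.

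**Figure D4:**
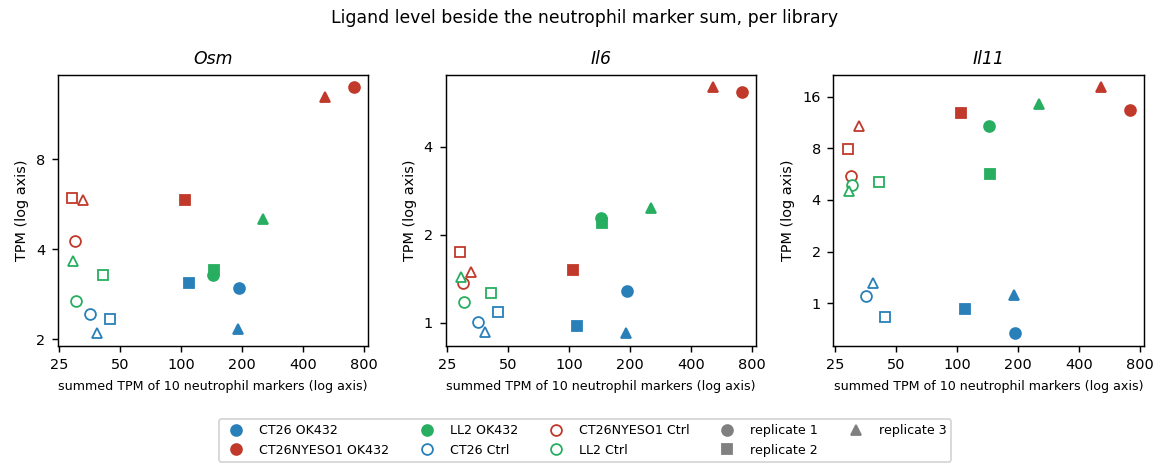
TPM of Osm, Il6 and Il11 (log axis) against the summed TPM of 10 neutrophil markers (log axis) in 18 libraries; filled points are OK432, open points Ctrl, colours tumour types and shapes replicate numbers. Sums of 110 to 193 in CT26_OK432 go with Il11 at or below 1.12 TPM, and sums of 143 to 253 in LL2_OK432 with Il11 of 5.66 to 14.4 TPM; Il11 was already at 4.52 to 5.09 TPM in LL2_Ctrl and 0.836 to 1.32 TPM in CT26_Ctrl.

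Il11, Lif, Osmr and Il6st differed more between untreated CT26 tumours and the other types than with OK-432 in any tumour type, and Il6 did not. In CT26NYESO1_Ctrl Il11, Lif, Osm and Socs3 were higher, and Il6st, Osmr and Il6ra lower, than in CT26_Ctrl. Of the 9 genes, 4 were called higher and 3 lower in CT26NYESO1_Ctrl against CT26_Ctrl, 7 in all, where 64.9% of all tested genes were called (21.1% higher and 43.9% lower). In LL2_Ctrl against CT26_Ctrl 3 were called higher and 3 lower, where 68.8% of all genes were called (29.1% higher and 39.7% lower), and in LL2_Ctrl against CT26NYESO1_Ctrl 2 were higher and 3 lower, where 66.3% were (38.8% higher and 27.5% lower). The members' shares are near these backgrounds, and the 3 comparisons share control libraries. The median of all tested genes was −0.18, −0.08 and 0.10 in the 3 comparisons, and median-of-ratios rescaling moved it to 0.00 in each, so differences are also given relative to that median.

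Il11 and Lif were scarce in CT26. Il11 averaged 8.09 ± 2.63 TPM in CT26NYESO1_Ctrl and 1.08 ± 0.242 TPM in CT26_Ctrl (SD, n = 3 each), a log2 difference of 2.09 ± 0.25 (SE; limma adjusted p = 1.54e-06), or 2.27 above the median gene. In LL2_Ctrl it averaged 4.83 ± 0.285 TPM, 1.49 ± 0.25 above CT26_Ctrl (SE; limma adjusted p = 5.49e-05). Lif averaged 10.6 ± 1.501 TPM in CT26NYESO1_Ctrl and 9.97 ± 1.14 TPM in LL2_Ctrl, against 2.13 ± 0.477 TPM in CT26_Ctrl. The differences from CT26_Ctrl were 1.89 ± 0.187 in CT26NYESO1 and 1.82 ± 0.187 in LL2 (SE; limma adjusted p = 1.41e-07 and 1.92e-07). Between LL2_Ctrl and CT26NYESO1_Ctrl the Lif values overlapped, with a difference of −0.07 (95% interval −0.47 to 0.32).

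Osm averaged 5.34 ± 0.95 TPM in CT26NYESO1_Ctrl and 2.29 ± 0.176 TPM in CT26_Ctrl (SD, n = 3 each), a difference of 0.94 ± 0.233 (SE; limma adjusted p = 0.00203). Its mean of 3.20 ± 0.477 TPM in LL2_Ctrl was not called against CT26_Ctrl (0.35, adjusted p = 0.193). Socs3 was higher than in CT26_Ctrl (38.2 ± 3.58 TPM) both in CT26NYESO1_Ctrl (71.6 ± 17.6 TPM) and in LL2_Ctrl (65.2 ± 5.07 TPM), by 0.87 and 0.76 (limma adjusted p = 0.000693 and 0.00184). Il6 was at or below 1.75 TPM in every control library and was not called between any pair of untreated tumours (0.33, 0.19 and −0.15).

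The receptor genes Osmr and Il6st were lower than in CT26_Ctrl in both other tumour types. Osmr averaged 9.57 ± 0.884 TPM in CT26NYESO1_Ctrl and 13.6 ± 0.774 TPM in LL2_Ctrl, against 50.8 ± 2.55 TPM in CT26_Ctrl (SD, n = 3 each). It was thus 5.30 times as abundant in CT26_Ctrl as in CT26NYESO1_Ctrl, a difference of −2.29 ± 0.0983, and −1.83 ± 0.0983 for LL2 against CT26 (SE; limma adjusted p = 3.54e-12 and 4.31e-11). Il6st averaged 46.0 ± 4.14 TPM in CT26NYESO1_Ctrl and 51.0 ± 2.85 TPM in LL2_Ctrl, against 117 ± 14.8 TPM in CT26_Ctrl, differences of −1.32 and −1.18 (limma adjusted p = 9.19e-10 and 3.19e-09). The 8 fibroblast markers, none of them at 0 in any library, summed to 1260 to 1677 TPM in CT26NYESO1_Ctrl and 3104 to 3790 TPM in LL2_Ctrl, against 6082 to 9136 TPM in CT26_Ctrl. The fibroblast markers did not all go one way against CT26_Ctrl. In CT26NYESO1_Ctrl 0 of 8 were called higher and 6 lower (median −1.53), where 21.1% and 43.9% of all tested genes were. In LL2_Ctrl 3 were called higher and 4 lower (median −0.23), where 29.1% and 39.7% of all tested genes were. The 8 endothelial markers, also never at 0, summed to 71.2 to 89.99 TPM in CT26NYESO1_Ctrl and 138 to 169 TPM in LL2_Ctrl, against 387 to 440 TPM in CT26_Ctrl. Of them 8 were called lower in CT26NYESO1_Ctrl (median −2.06) and 7 in LL2_Ctrl (median −1.90), where 43.9% and 39.7% of all tested genes were. The part of either cell type in the receptor differences was not tested. Relative to the median gene the Osmr and Il6st differences were −2.12 and −1.75 for Osmr and −1.14 and −1.09 for Il6st. Il6ra was lower in CT26NYESO1_Ctrl (9.58 ± 0.57 TPM) than in CT26_Ctrl (15.7 ± 0.821 TPM), by −0.66 (limma adjusted p = 1.6e-06). In LL2_Ctrl it was at 17.9 ± 0.885 TPM and was not called against CT26_Ctrl (0.18, adjusted p = 0.0592), but was called after median-of-ratios rescaling (0.27, adjusted p = 0.00333) and after quantile normalization (0.37, adjusted p = 0.000232). Lifr was lower in LL2_Ctrl (1.66 ± 0.14 TPM) than in CT26_Ctrl (4.06 ± 0.324 TPM), by −0.93 (limma adjusted p = 2.03e-05), and its difference in CT26NYESO1_Ctrl (−0.29) was not called (adjusted p = 0.0897).

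**Figure D5:**
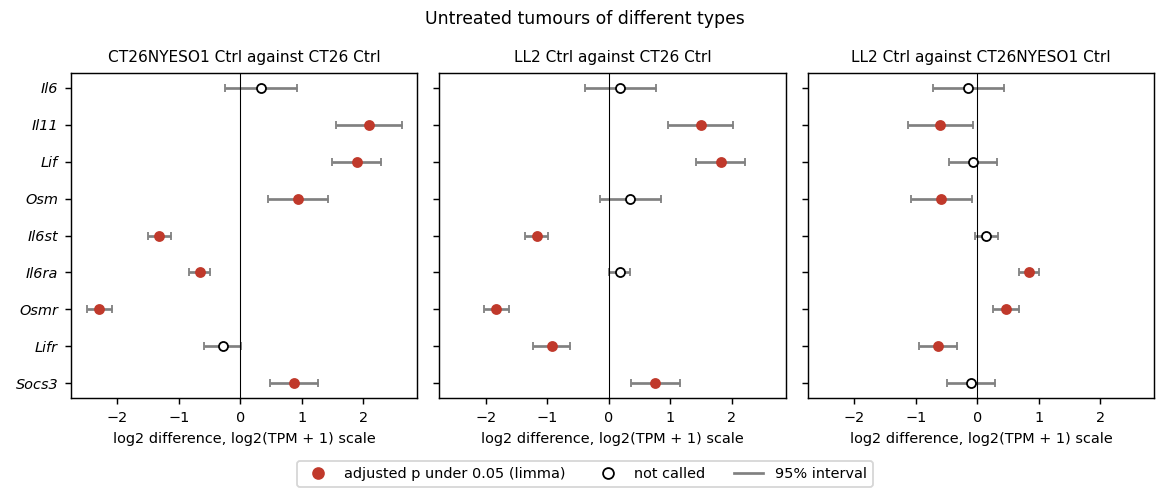
Log2 difference of the 9 genes between untreated tumours of different types, the first-named group minus the other, with 95% intervals from limma; filled points had an adjusted p under 0.05. Il11 and Lif lie at 1.49 to 2.09 and Osmr and Il6st at −2.29 to −1.18 in both comparisons with CT26_Ctrl.

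Between LL2_Ctrl and CT26NYESO1_Ctrl 5 members were called. Il6ra (0.84, limma adjusted p = 9.16e-08) and Osmr (0.46, adjusted p = 0.00054) were higher in LL2_Ctrl, and Lifr (−0.64, adjusted p = 0.000813) was lower. Il11 (−0.60, adjusted p = 0.0441) and Osm (−0.59, adjusted p = 0.0347) were also called lower in LL2_Ctrl, but both calls ended without a filter on low values (adjusted p = 0.0954 and 0.0774). The Il11 call ended in 10 of the 18 omissions of 1 library, among them 5 of the 6 libraries compared (all but CT26NYESO1_Ctrl replicate 1), with adjusted p up to 0.207 and a difference of −0.39 without CT26NYESO1_Ctrl replicate 3. That of Osm ended in 4, without replicate 2 or 3 of CT26NYESO1_Ctrl or replicate 1 or 2 of LL2_Ctrl, with adjusted p up to 0.113.

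Across the 6 groups, mean Il11 ran from 14.8 TPM in CT26NYESO1_OK432 through 10.3 in LL2_OK432, 8.09 in CT26NYESO1_Ctrl and 4.83 in LL2_Ctrl to 1.08 in CT26_Ctrl and 0.903 in CT26_OK432. Neighbours in that order overlapped, except CT26NYESO1_Ctrl with LL2_Ctrl and LL2_Ctrl with CT26_Ctrl. Il6 (4.70, 2.31, 1.54, 1.29, 1.06 and 1.01 TPM) had the same order but for CT26_OK432 before CT26_Ctrl, and only LL2_OK432 and CT26NYESO1_Ctrl did not overlap among its neighbours. Socs3 (114, 75.6, 71.6, 65.2, 38.2 and 36.8 TPM) had that of Il11, with overlapping neighbours except between LL2_Ctrl and CT26_Ctrl. Mean Lif was highest in LL2_OK432 (16.1 TPM), and all 4 LL2 and CT26NYESO1 groups overlapped in a chain and stood apart from both CT26 groups. Mean Osm was highest in CT26NYESO1_OK432 (10.9 TPM) and lowest in CT26_Ctrl (2.29 TPM), and each neighbour overlapped the next. Osmr ran from CT26_Ctrl through CT26_OK432, LL2_OK432, LL2_Ctrl and CT26NYESO1_OK432 to CT26NYESO1_Ctrl with no overlap between neighbours. Il6st ran from CT26_Ctrl and CT26_OK432 to LL2_Ctrl, LL2_OK432, CT26NYESO1_OK432 and CT26NYESO1_Ctrl, and only the CT26 groups stood apart. Il6ra was highest in LL2_Ctrl and lowest in CT26NYESO1_Ctrl, with both CT26NYESO1 groups apart from the others, and Lifr was highest in CT26_OK432 (4.77 TPM) and lowest in LL2_Ctrl (1.66 TPM), with the 3 tumour types apart from each other. Per length, Il6st and Socs3 were the most abundant transcripts of the set, with 70.6 and 66.9 TPM on average over the 18 libraries, and Il6 the least, with 1.98 TPM.

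Other genes of the pathway came from lists chosen with earlier results of these data known. Of 8 further gp130 family ligands and partners 6 were tested. In CT26 and LL2, where 0.00% and 0.0178% of all tested genes were called with OK-432, none of the 6 was called. In CT26NYESO1, where 0.666% of all tested genes were called, 1 of the 6 was. This was Clcf1, cardiotrophin-like cytokine factor, at 27.7 ± 2.53 TPM in CT26NYESO1_OK432 and 20.2 ± 1.91 TPM in CT26NYESO1_Ctrl (SD, n = 3 each; 0.44, limma adjusted p = 0.0462). Its call ended in 13 of the 18 omissions of 1 library, with values of 0.36 to 0.49 and adjusted p up to 0.272. Il11ra1, the interleukin-11 binding subunit, was lower in CT26NYESO1_Ctrl (14.4 TPM) than in CT26_Ctrl (28.5 TPM; −0.94, adjusted p = 1.08e-05) and was not called with OK-432 in any tumour type.

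Downstream of the receptors, none of 8 JAK-STAT transducers and none of 7 other SOCS family genes was called with OK-432 in any tumour type. Of all tested genes, 0.00% were called in CT26, 0.666% in CT26NYESO1 and 0.0178% in LL2, so counts of 0 are near these shares. Jak1, the kinase most used by gp130, was at 67.0 TPM in CT26NYESO1_OK432 and 65.0 TPM in CT26NYESO1_Ctrl (0.04). Socs1, a feedback gene of interferon signalling, was at 15.3 and 18.3 TPM in the same groups (−0.24, limma adjusted p = 0.456), and at 9.61 TPM in LL2_OK432 and 9.08 TPM in LL2_Ctrl (0.08). The shedding proteases Adam10 and Adam17, which release soluble receptor, were not called with OK-432. Both were lower in CT26NYESO1_Ctrl than in CT26_Ctrl (−1.17 and −0.62, limma adjusted p = 3.56e-12 and 6.27e-08), where 43.9% of all tested genes were called lower.

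Among 25 genes listed as STAT3 targets, 23 were tested. In CT26NYESO1 3 were called higher and none lower, where 0.666% of all tested genes were called in either direction. There 19 of 23 differences were positive, where 43.5% of all tested genes were. The list was chosen with earlier results of these data known, so such counts are no test of STAT3 activity. The called genes were Lcn2 (3.90, limma adjusted p = 0.0246), a siderophore-binding protein, Saa3 (3.82, 0.0465), an acute phase protein, and Bcl3 (0.56, 0.0429), an NF-kB cofactor. Bcl3 was at 28.1 ± 1.82 TPM in CT26NYESO1_OK432 and 18.7 ± 1.61 TPM in CT26NYESO1_Ctrl (SD, n = 3 each). The calls of Lcn2, Saa3 and Bcl3 ended in 4, 16 and 14 of the 18 omissions of 1 library. In the average over tumour types Lcn2 (3.13, limma adjusted p = 0.00212) and Saa3 (2.996, adjusted p = 0.014) were called, and both calls held in all 18 omissions. In LL2 none was called, where 0.0178% of all tested genes were. All 23 differences were positive there, with a median of 0.28, where 44.8% of all genes were positive and the median was −0.01. In CT26 none was called, where 0.00% of all tested genes were, and 10 of 23 were positive with a median of −0.04, where 50.1% of all genes were positive. Lcn2 and Saa3 are also abundant in neutrophils and inflamed tissue. The neutrophil marker sums given above were higher with OK-432 in each tumour type, and the part of neutrophils in the Lcn2 and Saa3 values was not tested.

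Of the genes that induce Il6 or its transcripts' decay, Il1b (2.90, limma adjusted p = 0.0148) and Il1a (1.72, adjusted p = 0.0246), which encode interleukin-1 cytokines, were called higher in CT26NYESO1. These were 2 of 7 tested inducers, where 0.666% of all tested genes were called. Zc3h12a, an RNase that degrades Il6 transcripts, was called among 4 transcript regulators, at 23.6 TPM in CT26NYESO1_OK432 and 13.7 TPM in CT26NYESO1_Ctrl (0.75, adjusted p = 0.0217). The calls of Il1b, Il1a and Zc3h12a ended in 3, 4 and 3 of the 18 omissions of 1 library (adjusted p up to 0.11, 0.184 and 0.151). Averaged over tumour types, Il1a (1.24, adjusted p = 0.00378) was called in all 18 omissions and Il1b (1.57, adjusted p = 0.0191) lost its call in 7. None of these lists had a member called in CT26 or LL2, where 0.00% and 0.0178% of all tested genes were called.

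Genes with the most similar pattern were taken by Pearson r of log2(TPM + 1) over the 18 libraries, each tumour type centred on its own mean, among 11552 genes with a mean of at least 5 TPM. These values describe the libraries and carry no test. The libraries differ in treatment and in neutrophil marker sum, and the part of either in the likeness was not tested. For Il6 they were Cxcl1 (r = 0.94), Rcor2 (0.92) and Bsg (0.92). For Osm they were Tnfaip3 (0.95), Mxd1 (0.94) and Cxcl1 (0.93). Those of Lif were Ptgs2 (0.92), Cebpd (0.91) and Sod2 (0.91), and those of Il11 were Hbegf (0.93), Csnk1e (0.92) and Dusp5 (0.91). Socs3 had Csrnp1 (0.93), Srgn (0.92) and Il1rn (0.92). The nearest genes of the receptors had lower r, from 0.77 to 0.81 for Vars2 (Il6ra), Htra1 (Il6st), Fnip2 (Osmr) and Selenop (Lifr). Within the family, Il6 and Osm had r = 0.92, Osm and Socs3 0.87, Il6 and Socs3 0.81 and Lif and Socs3 0.80, while Lifr and Socs3 had −0.44. The Cxcl1 values behind this likeness were 102 ± 80.7 TPM in CT26NYESO1_OK432 and 7.82 ± 1.45 TPM in CT26NYESO1_Ctrl (SD, n = 3 each).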

How the data were processed

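Tumour RNA was measured by mRNA sequencing in 18 libraries (TRIzol extraction and a stranded kit, per the labels' protocols). The authors deposited 1 table of TPM values with 55291 genes. Tools listed in the submitters' processing notes are STAR 2.7.3a, StringTie 2.1.2 and Trim Galore 0.6.5, with build mm10; annotation and strand setting are not given there. Since depth is lost in TPM, it is unknown here and no counting interval is printed, and a value of 0 can be a failed estimate.

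Groups came from the sample titles. Genes with at least 1 TPM in at least 3 libraries were kept (16816), and log2(TPM + 1) was fitted in limma 3.58.1 (R 4.3.3) as 6 group means, with trended and robust shrinkage and 12 residual degrees of freedom. P-values were adjusted over all tested genes. All 9 members were named, and of every other list up to 3 called genes, or its first tested gene. Members and lists were chosen with earlier results of these data known. Alternatives were a pseudocount of 0.1, no filter, 2 rescalings, plain shrinkage, a replicate block, fits of the compared groups alone, and omission of each library. The procedure was also tested on simulated data. Positions are from GENCODE M21 and promoter windows from RefSeq. Results for some list genes are not reported here.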

Additional observations from a re-analysis of the deposited data

Results flagged for a closer look

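Osmr stood out because every treated library lay below every control in CT26 and above every control in CT26NYESO1 and LL2. The log2 differences were −0.26 in CT26, 0.22 in CT26NYESO1 and 0.23 in LL2. The effect in CT26NYESO1 minus that in CT26 was 0.47 (95% interval 0.18 to 0.77; limma adjusted p = 0.439), and the effect in LL2 minus that in CT26 was 0.49 (95% interval 0.20 to 0.78; limma adjusted p = 0.892). Neither passed the threshold over all genes. Endothelial marker sums were 335 to 421 TPM in CT26_OK432 and 387 to 440 TPM in CT26_Ctrl, 89.4 to 116 TPM in CT26NYESO1_OK432 and 71.2 to 89.99 TPM in CT26NYESO1_Ctrl, and 142 to 199 TPM in LL2_OK432 and 138 to 169 TPM in LL2_Ctrl. Of the 8 endothelial markers, 1, 8 and 7 had positive differences with OK-432 in CT26, CT26NYESO1 and LL2. Of the 8 fibroblast markers, 7, 6 and 3 did in the same order. The part of either cell type in the Osmr values was not tested. Over all single-library omissions Osmr lay at −0.33 to −0.15 in CT26, 0.15 to 0.27 in CT26NYESO1 and 0.15 to 0.29 in LL2. Groups of 3 libraries are too small for a test of single outlying libraries.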

How the results depend on the processing

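No members were called with OK-432 within CT26 or LL2, or for LL2 minus CT26 effects, under any alternative run. Between untreated tumours, members called numbered 3 in place of 5 for LL2_Ctrl against CT26NYESO1_Ctrl with no filter on low values. More genes were then fitted and adjusted for, and the cause of the lost calls was not tested. The replicate numbers gave no clear sign of pairing (correlations of −0.122 to 0.219, and 4 of 9 libraries closest to their own number), which does not exclude it. With the replicate block, 1 member, Socs3 (0.66, adjusted p = 0.0497), was called in CT26NYESO1, against 0 without it, and all genes called were 43 against 112. Fits of the compared libraries alone gave 0 genes in CT26NYESO1, 4 in CT26 and 9 in LL2, against 112, 0 and 3. In those fits Il6 (CT26NYESO1_Ctrl minus CT26_Ctrl, 0.33, adjusted p = 0.0487) and Osm (LL2_Ctrl minus CT26_Ctrl, 0.35, adjusted p = 0.0423) were called. With no filter the counts were 42, 22 and 18 in the same order, and plain shrinkage gave 56 in CT26NYESO1. The Il11 call in LL2_Ctrl against CT26NYESO1_Ctrl was also lost with a pseudocount of 0.1 (−0.68, adjusted p = 0.0555), quantile normalization (−0.61, adjusted p = 0.0506) and plain shrinkage (adjusted p = 0.0504).

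Omitting 1 library at a time gave 0 to 3 members called in CT26NYESO1, 0 to 2 in the average, 0 to 1 for the CT26NYESO1 minus CT26 effect and 0 to 1 for LL2 minus CT26NYESO1. Between untreated tumours it gave 7 to 8, 6 to 7 and 3 to 5. All genes called in CT26NYESO1 ranged from 4 to 673; the 673 came without CT26NYESO1_OK432 replicate 2. Il6ra in LL2_Ctrl against CT26_Ctrl was called without CT26_Ctrl replicate 2 (adjusted p = 0.0476), CT26NYESO1_OK432 replicate 2 (0.0465) or replicate 3 (0.036), and Il6 in CT26NYESO1_Ctrl against CT26_Ctrl without CT26NYESO1_OK432 replicate 2 (0.0111).

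Sign changes were limited to differences that were not called. Lifr in LL2 was −0.00516 with a pseudocount of 0.1, Il6st in the average 0.0043 with quantile normalization, and Osmr for LL2 minus CT26NYESO1 −0.00215 with median-of-ratios rescaling. On omitting 1 library, the CT26 differences ranged over −0.0447 to 0.0821 (Il6), −0.111 to 0.0900 (Lif), −0.133 to 0.0460 (Il6st) and −0.156 to 0.0624 (Socs3). CT26NYESO1 differences ranged over −0.0354 to 0.0885 (Il6st) and −0.179 to 0.0325 (Lifr), and LL2 differences over −0.0809 to 0.0317 (Il6st) and −0.119 to 0.144 (Lifr). Averages ranged over −0.0096 to 0.0391 (Il6ra) and −0.0396 to 0.0199 (Il6st). The CT26NYESO1 minus CT26 effect of Il6st ranged over −0.00837 to 0.170. LL2 minus CT26 effects ranged over −0.126 to 0.127 (Osm), −0.024 to 0.0531 (Il6ra) and −0.0699 to 0.109 (Il6st). LL2 minus CT26NYESO1 effects ranged over −0.219 to 0.388 (Il11), −0.00814 to 0.377 (Lif), −0.118 to 0.0115 (Il6st), −0.0686 to 0.0840 (Osmr) and −0.0671 to 0.196 (Lifr). Socs3 in LL2_Ctrl against CT26NYESO1_Ctrl ranged over −0.241 to 0.0791. The cause of these changes was not tested.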
